A study of Mus musculus with 37 samples.

Results

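A set of 10 imprinted genes, chosen by name, was followed through the 4 RNA-seq tables and the 6 ATAC-seq peak lists of the series. Of these 10 genes, 7 are expressed from the paternal allele (Snrpn, Kcnq1ot1, Mest, Airn, Peg3, Zrsr1 and Usp29) and 3 from the maternal allele (Phlda2, Cdkn1c and Igf2r). All 10 were listed among the 25053 genes of the ZH germinal vesicle (GV) oocyte table, the 19033 genes of the CabZ GV table and the 24305 genes of the CabZ 2-cell table. The Zscan4 OE table used here, with 15855 genes, had 8 of them. It had no row for Kcnq1ot1 or Zrsr1, which were not analysed there.

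The ZH and CabZ lines carry floxed Hira or floxed Cabin1 with a Cre driven by the oocyte promoter Zp3, on a C57BL/6 background. HIRA is the histone chaperone that places histone H3.3 outside replication, and CABIN1 is a subunit of its complex. ZH KO and CabZ KO oocytes have both copies of the floxed gene deleted, and the ZH Het and CabZ Het controls have 1 copy deleted, so that neither Het group is wild type. Each of these groups had 4 RNA-seq libraries of GV oocytes, and CabZ Het and CabZ KO had 4 further libraries of 2-cell embryos from such oocytes. Zp3-Cre acts in the oocyte and not in sperm, and whether an embryo's paternal Cabin1 copy was intact, and whether the sequenced CabZ embryos were fertilised, is not given for the RNA-seq libraries in the sources used here. The remaining groups were 2-cell embryos from wild-type oocytes that had been injected with GFP RNA (4 libraries) or Zscan4d RNA (Zscan4 OE, 3 libraries), matured in vitro and activated without sperm. Such parthenotes hold no paternal genome. Libraries were made from pooled cells, ages were not given in the labels, and nothing states that replicates came from separate females, so every p-value measures only the spread between these libraries.

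Imprinted genes are read from 1 parental copy because that copy and its partner left the germline with different DNA methylation. For Snrpn, Kcnq1ot1, Mest, Airn, Peg3, Usp29 and Zrsr1 the methylation is laid down on the maternal copy while the oocyte grows, so that the paternal copy is the active one after fertilisation. Kcnq1ot1 and Airn are long noncoding RNAs that silence neighbours on their own chromosome, Kcnq1ot1 acting on Phlda2 and Cdkn1c and Airn on Igf2r. A GV oocyte is full grown and holds stored maternal RNA, whereas a mouse 2-cell embryo has begun to transcribe its own genome. The reads carried no information on the allele they came from, and a lower level in a pool of cells cannot be told apart from fewer cells with the RNA.

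Libraries held 5817882 to 21858833 reads on genes, with the lowest values in CabZ KO 2-cell embryos (5817882 to 6328420). Levels are given as reads per 1000000 of the total that each library was scaled to (CPM), a unit for comparing a gene between libraries. In CabZ libraries that total was the reads on genes. The listed genes held 74.2% to 74.7% of it in ZH Het and 66% to 68.2% in ZH KO. In GFP and Zscan4 OE libraries they held 65.6% to 68.1%. CPM in these last groups is therefore smaller than reads per 1000000 reads on genes. Different genes are set side by side only per kilobase of merged exons. All 10 oocyte marker genes (Zp3, Gdf9, Bmp15 and others) were above 1 CPM in the GV groups, and 9 or 10 of 10 in the 2-cell groups. Summed 2-cell marker genes were at 19.1 to 26.4 CPM in ZH Het and 538 to 941 CPM in ZH KO oocytes, with 5 of 9 and 2 of 9 listed markers under 1 CPM. In CabZ oocytes they were at 30.1 to 38.5 CPM in Het and 122 to 268 CPM in KO, with 4 of 8 and 3 of 8 under 1 CPM. Summed granulosa cell markers were 54 to 68.9 CPM in CabZ Het and 95 to 137 CPM in CabZ KO oocytes, and 36.7 to 42.5 CPM against 32 to 67.7 CPM in ZH, with 4 of 7 under 1 CPM in both CabZ groups and 6 of 9 and 4 of 9 in the ZH groups. Summed oocyte markers were 14960 to 16510 CPM in ZH Het and 7934 to 15193 CPM in ZH KO oocytes, and 16517 to 25202 CPM against 16212 to 18207 CPM in CabZ oocytes. In CabZ 2-cell embryos the summed oocyte markers, all above 1 CPM, were 1877 to 3235 CPM in Het and 4698 to 8053 CPM in KO. The summed 2-cell markers of these embryos were 1897 to 3720 CPM in Het and 1947 to 6566 CPM in KO, with 1 and 0 of 10 under 1 CPM. Summed 2-cell markers were 2046 to 3214 CPM in GFP and 646 to 1780 CPM in Zscan4 OE parthenotes, with 0 and 1 of 10 under 1 CPM. The part of these markers in the results below was not tested. Cabin1 was lower in all 4 CabZ KO libraries at both stages (exact permutation p = 0.0286 at each). It was also lower in all 4 ZH KO libraries, at 0.0864 FPKM against 0.286 FPKM in ZH Het (exact permutation p = 0.0286), and Hira was lower in all 4 CabZ KO embryo libraries, at 0.0435 against 0.233 FPKM (exact permutation p = 0.0286), so lower Cabin1 does not mark the CabZ line alone. Too few Hira reads were present to check the ZH labels, and the 6 summed Zscan4 genes were lower in the libraries labelled Zscan4 OE (565 to 1664 CPM) than in GFP (1892 to 3075 CPM), against the label. Reads from the injected RNA and the embryo's own Zscan4 genes were not told apart, and the study's other checks of the overexpression were not analysed here.

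The start regions of the genes that the results turn on are shown because their methylation marks the parental copies in most of these clusters. Each window holds 250 bases before and 50 bases after the RefSeq start on its own strand in GRCm38.p6, with every CG dinucleotide, the site of the methylation, in capitals. Zrsr1 is a retrogene related to Zrsr2 that encodes a U2AF-like splicing factor, with its window at chr11:22971755-22972054 on the plus strand. Mcts2, an imprinted retrogene that lies in H13 (chr2:152686898-152687197, plus strand), is shown beside it and was added after its values were seen. The other windows are those of Kcnq1ot1 (chr7:143296498-143296797, minus strand), of Mest, which encodes a hydrolase-like protein of the embryonic mesoderm (chr6:30737800-30738099, plus strand), of Snrpn, which encodes the spliceosomal protein SmN (chr7:60005150-60005449, minus strand), and of Usp29, a ubiquitin-specific protease gene (chr7:6730333-6730632, plus strand).
Zrsr1: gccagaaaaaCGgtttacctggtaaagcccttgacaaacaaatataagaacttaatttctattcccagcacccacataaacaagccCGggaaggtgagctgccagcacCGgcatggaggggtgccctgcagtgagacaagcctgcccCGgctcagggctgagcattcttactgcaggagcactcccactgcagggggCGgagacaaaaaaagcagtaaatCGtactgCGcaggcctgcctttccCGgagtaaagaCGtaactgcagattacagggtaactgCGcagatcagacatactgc
Mcts2: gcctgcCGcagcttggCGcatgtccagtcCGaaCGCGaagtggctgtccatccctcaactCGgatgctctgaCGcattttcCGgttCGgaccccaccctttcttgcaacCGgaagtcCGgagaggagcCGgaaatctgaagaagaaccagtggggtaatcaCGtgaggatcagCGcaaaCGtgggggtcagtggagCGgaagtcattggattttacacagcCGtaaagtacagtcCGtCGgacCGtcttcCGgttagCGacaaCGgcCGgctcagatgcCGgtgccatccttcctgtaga
Kcnq1ot1: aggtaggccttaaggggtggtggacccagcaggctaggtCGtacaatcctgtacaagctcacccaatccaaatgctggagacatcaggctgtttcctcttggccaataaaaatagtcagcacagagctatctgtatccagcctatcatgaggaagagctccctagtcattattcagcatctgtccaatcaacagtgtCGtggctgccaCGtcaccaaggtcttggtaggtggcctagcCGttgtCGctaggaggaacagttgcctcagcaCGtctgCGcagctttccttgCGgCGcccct
Mest: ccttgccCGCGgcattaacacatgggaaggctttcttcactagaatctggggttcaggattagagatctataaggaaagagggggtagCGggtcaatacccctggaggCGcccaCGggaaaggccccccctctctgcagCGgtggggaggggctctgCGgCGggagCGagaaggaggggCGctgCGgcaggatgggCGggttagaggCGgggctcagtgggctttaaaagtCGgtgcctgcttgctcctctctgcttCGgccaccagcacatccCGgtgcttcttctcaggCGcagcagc
Snrpn: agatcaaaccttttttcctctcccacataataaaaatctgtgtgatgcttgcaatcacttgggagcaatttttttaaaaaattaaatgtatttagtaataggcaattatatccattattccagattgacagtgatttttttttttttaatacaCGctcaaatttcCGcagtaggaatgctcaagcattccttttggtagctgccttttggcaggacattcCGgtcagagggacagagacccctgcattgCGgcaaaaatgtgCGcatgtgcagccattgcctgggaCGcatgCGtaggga
Usp29: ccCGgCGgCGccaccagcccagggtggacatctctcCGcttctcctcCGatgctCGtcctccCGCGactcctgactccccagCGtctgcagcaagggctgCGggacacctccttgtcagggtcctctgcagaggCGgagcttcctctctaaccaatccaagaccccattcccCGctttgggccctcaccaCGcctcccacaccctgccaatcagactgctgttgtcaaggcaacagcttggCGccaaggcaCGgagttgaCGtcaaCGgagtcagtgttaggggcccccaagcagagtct

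These windows ranged widely in CG content, with 25 CG dinucleotides at Mcts2, 17 at Mest and at Usp29, 10 at Zrsr1, 9 at Kcnq1ot1 and 7 at Snrpn, against a median of 7 over 32851 RefSeq windows of 27025 genes. As many CG dinucleotides as at Zrsr1 were found in 43.5% of all windows and as many as at Mcts2 in 18.4%. Windows were given for 9 of the 10 imprinted genes, the exception being Cdkn1c. Snrpn had 4 windows, the others with 4, 3 and 2 CG dinucleotides, and Mest had 3, the others with 8 and 17. For each of these 2 genes a window with the most CG dinucleotides is shown. The highest number over all windows of these genes was 34 at Igf2r, reached by 7.73% of windows, and the lowest was 2 at a Snrpn start, with 3 at Airn. TGCCGC, the core of the motif bound by the imprint-maintaining protein ZFP57, was searched for on both strands and is written in the windows above with its own CG. It was found at 2 places in the Mest window shown and 1 place each in those shown for Snrpn and Mcts2, in none of the other 3 Snrpn windows, and in 11.6% of all windows. The Usp29 window shares 263 bases with that of Peg3, which starts on the opposite strand.

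Most of these genes had little RNA in control oocytes. Per kilobase of exons, the mean level in CabZ Het GV oocytes was 41.6 ± 14.5 CPM for Mest (SD, n = 4), 22.0 ± 6.89 for Phlda2, a restrainer of placental growth, and 14.1 ± 1.25 for Snrpn. Cdkn1c, which encodes the cell cycle inhibitor p57, followed at 1.82 ± 0.334, and Usp29, Airn and Igf2r, the receptor that clears IGF2, lay between 0.93 and 1.17, within 1 SD of each other. Peg3, a zinc-finger gene, had 0.282, Zrsr1 0.0349 and Kcnq1ot1 0.00722, the lowest of the set. Kcnq1ot1 was divided by 93092 bp of annotated exon and Airn by 3597 bp. The places of these long noncoding RNAs in the order depend on that annotation. Neighbours in this order whose ranges of 1 SD overlapped were Mest and Phlda2, Phlda2 and Snrpn, Usp29, Airn and Igf2r with one another, and Zrsr1 and Kcnq1ot1. In CabZ Het 2-cell embryos the order was led by Phlda2 (219 ± 48.2) and Snrpn (76.6 ± 13.4), and Zrsr1 (6.60 ± 1.16) had passed Mest (4.17 ± 0.798).

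**Figure D1:**
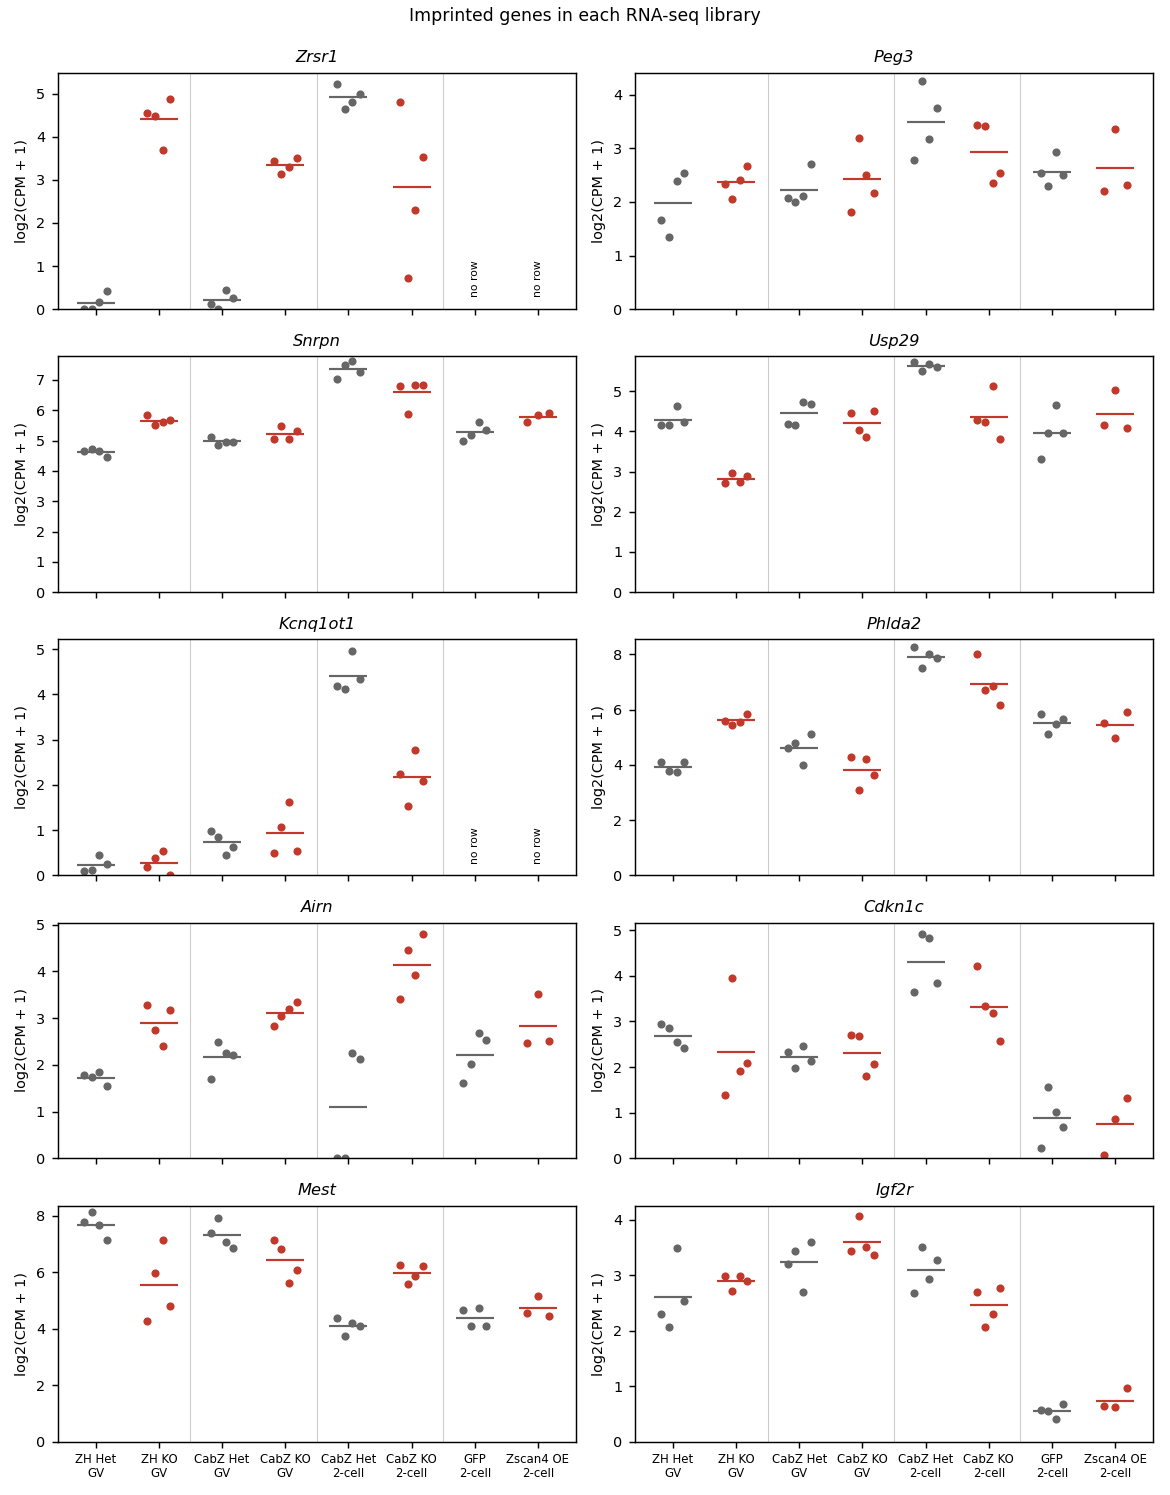
Level of each imprinted gene, as log2(CPM + 1), in every RNA-seq library by group, with a panel per gene, points for single libraries (grey for Het or GFP, red for KO or Zscan4 OE) and a line for each group mean of the plotted values. Zrsr1 is near 0 in both sets of Het GV oocytes, between 7.85 and 28.4 CPM in the KO GV libraries and highest on average in CabZ Het 2-cell embryos.

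Between the GV oocyte and the 2-cell embryo of the CabZ Het line, 7 of the 10 genes were higher in all 4 embryo libraries than in any oocyte library and 1 was lower, against 25.9% and 30.6% of the 17956 genes in both tables. These tables were normalised separately, so the change is described without a test. The paternally expressed Zrsr1 had the largest ratio of the set. Its levels were 0.0802, 0, 0.360 and 0.187 CPM in oocytes, which is 7 reads in the 4 libraries together, and 36.2, 24.2, 27.1 and 31.1 CPM in embryos, a ratio of means of 189. Kcnq1ot1 had the next largest ratio, from 0.961, 0.812, 0.365 and 0.552 CPM to 17.1, 16.5, 30.3 and 19.4 CPM (31.0-fold). Both were close to the detection limit in the oocyte, so that their ratios rest on few oocyte reads.

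The protein-coding Snrpn was already well above the limit in Het oocytes, at 34.2, 27.6, 29.9 and 30.3 CPM, and stood at 131, 181, 196 and 153 CPM in embryos (5.42-fold higher). Usp29 was 2.28-fold higher and its neighbour Peg3 2.96-fold higher. Mest went the other way. Its 168, 243, 133 and 114 CPM in oocytes compared with 20.0, 12.4, 17.2 and 16.2 CPM in embryos, 10.0-fold lower, and it was the only gene of the set with all embryo libraries below all oocyte libraries. Among the maternally expressed genes, Phlda2 was 9.96-fold and Cdkn1c 5.47-fold higher in embryos, while Igf2r overlapped between stages, as did Airn.

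In the CabZ KO line, only Snrpn (2.69-fold), Airn (2.33-fold) and Phlda2 (9.96-fold) were higher in all embryo libraries than in any oocyte library, and only Igf2r was lower (2.46-fold), against 27% and 23.7% of all genes. For Zrsr1 the KO oocyte and embryo libraries overlapped, with means of 9.23 and 10.6 CPM. Mest overlapped as well, at means of 91.9 and 63.5 CPM, as did Kcnq1ot1, Usp29, Peg3 and Cdkn1c. Snrpn and Phlda2 were higher in both lines, 2 of the 7 genes in Het and 2 of the 3 in KO.

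**Figure D2:**
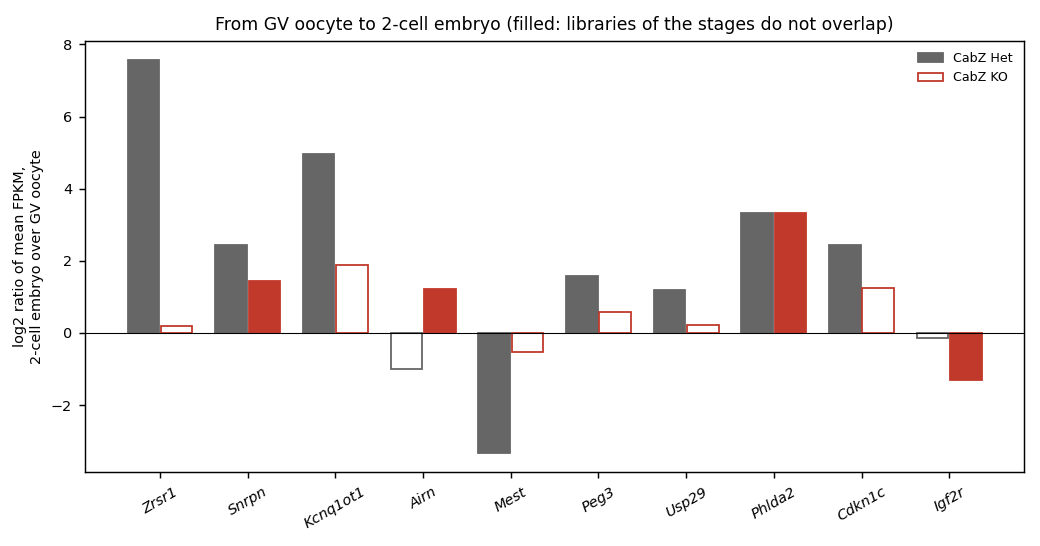
Ratio of the mean level in 2-cell embryos to that in GV oocytes (log2 of the FPKM ratio) for each imprinted gene, with grey bars for CabZ Het and red bars for CabZ KO, filled where no library overlaps between stages; no error bars are drawn. In Het the tallest bars upward are those of Zrsr1 (189-fold) and Kcnq1ot1 (31.0-fold) and the tallest downward is that of Mest (10.0-fold), and in KO the bars of Zrsr1 and Mest are short and open.

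The GFP parthenotes, which have no paternal genome, came from another table and are set beside the CabZ Het embryos without a test. Per kilobase of exons, Snrpn was at 17.9 ± 3.48 CPM in GFP parthenotes and 76.6 ± 13.4 in CabZ Het embryos. Phlda2, expressed from the maternal copy, was also lower in the parthenotes, at 40.7 ± 8.57 against 219 ± 48.2, and so were Cdkn1c (0.462 against 9.97) and Igf2r (0.05 against 0.835). Mest had 5.17 ± 1.31 against 4.17 ± 0.798 and was not lower. Of the other paternally expressed genes listed, Usp29 was lower (0.858 ± 0.351 against 2.67 ± 0.17). Peg3 had 0.376 ± 0.087 against 0.836 ± 0.406, and Airn was higher on average (1.06 ± 0.432 against 0.497 ± 0.575). Listed genes held 65.6% to 68.1% of the scaling total in GFP libraries and 100% in CabZ Het embryos. This scaling makes GFP values smaller beside CabZ Het values, by an amount not corrected here. The retrogene Mcts2, added after its values were seen, had means of 0.289 CPM in GFP and 145 CPM in CabZ Het embryos. Mcts1, with which Mcts2 may share reads, had 1.92 and 53.2 CPM. The lower levels in parthenotes included genes of both parental classes, and the part of parental class was not tested.

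Loss of HIRA in GV oocytes went with changes in both directions among the paternally expressed genes. A gene was called when limma on log2(FPKM + 1) gave more than a 2-fold change at an adjusted p under 0.05, and only genes that averaged 1 FPKM or more entered the fit. FPKM in these tables is reads per kilobase of the whole gene span, introns included, so long genes with many reads fall under that limit and the same rule was also run on log2(CPM + 1) with a limit of 1 CPM. On the FPKM scale 4 of the 10 genes could be tested. Zrsr1 and Phlda2 rose and Mest fell, against 10.5% of 5792 genes called higher and 7.2% called lower. On the CPM scale 9 genes could be tested. Zrsr1, Phlda2, Snrpn and Airn rose and Mest and Usp29 fell, against 16% and 12.8% of 13709 genes. For these 6 genes no KO library overlapped a Het library, which was so for 47.6% of all genes tested. Whether 6 of 9 exceeds the share of genes at large was not tested. The number of genes called higher and lower over the whole table was 606 and 417, but 471 and 627 when libraries were scaled to the same median over genes of at least 10 FPKM (median scaling). The 3 imprinted genes called on the FPKM scale were called under both.

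Zrsr1 was nearly absent from the ZH Het oocytes, with 0, 0, 2 and 7 reads, and present in each ZH KO library, with 353, 341, 160 and 386 reads. These counts correspond to 0, 0, 0.121 and 0.344 CPM in Het and 22.7, 21.2, 12.1 and 28.4 CPM in KO. Pooled over libraries, the rate per read on genes was 166 times as high in KO (95% exact interval 87.4 to 365, counting error only). The limma difference was 2.80 on the log2(FPKM + 1) scale (SE 0.202, adjusted p = 9.35e-06) and 4.26 on the log2(CPM + 1) scale (SE 0.245, adjusted p = 8.91e-07). Zrsr1 passed the limits on low values only through the KO libraries, as its Het means were 0.0354 FPKM and 0.116 CPM. Its place among the genes tested thus depended on its being high in KO.

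Snrpn stood at 24.2, 25.4, 24.2 and 20.9 CPM in ZH Het and 55.8, 44.5, 48.4 and 50.4 CPM in ZH KO. The rise was of 1.04 on the log2(CPM + 1) scale (SE 0.158, limma adjusted p = 0.000351). Without Het replicate 4 or without KO replicate 1 its difference fell under the fold change of 2, so that 5 genes and not 6 were called. Airn, at 2.45, 2.34, 2.59 and 1.92 CPM in Het, had 8.72, 5.67, 4.30 and 8.07 CPM in KO (difference 1.17, SE 0.214, limma adjusted p = 0.00109). Mas1, which overlaps Airn on the other strand, also had more reads, with means of 5.04 and 8.94 CPM, and the reads do not tell strands apart.

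Mest was the abundant gene that fell. Its Het libraries held 218, 280, 201 and 139 CPM and its KO libraries 18.2, 61.8, 138 and 26.7 CPM, with the highest KO library just below the lowest Het library. The difference was -1.61 on the log2(FPKM + 1) scale (SE 0.382, limma adjusted p = 0.00643). Usp29 fell with less spread, from 16.7, 16.8, 23.9 and 17.9 CPM to 5.53, 6.74, 5.63 and 6.44 CPM (difference -1.47 on the log2(CPM + 1) scale, SE 0.174, limma adjusted p = 6.99e-05). Peg3, which starts beside Usp29 on the other strand, overlapped between groups, with a difference of 0.38 (limma adjusted p = 0.254).

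Of the maternally expressed genes only Phlda2 was called in ZH oocytes. It stood at 16.3, 12.5, 12.5 and 16.1 CPM in Het and 47.4, 42.7, 45.7 and 56.5 CPM in KO, a difference of 1.64 on the log2(FPKM + 1) scale (SE 0.141, limma adjusted p = 2.52e-05). Cdkn1c, in the same cluster, had equal means of 5.53 CPM in both groups, and KO replicate 2 alone held 14.5 CPM beside 1.60 to 3.23 CPM in the other KO libraries. Igf2r overlapped, with means of 5.54 and 6.48 CPM. Kcnq1ot1 was at most 0.452 CPM in any ZH library, and its part in the level of Phlda2 was not tested.

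Fewer imprinted genes passed the test after loss of CABIN1 in GV oocytes. Zrsr1 was the only gene called of 4 tested on the FPKM scale, where 2.07% of 6339 genes were called higher and 0.836% lower. It was also the only one of 9 tested on the CPM scale, where the shares were 4.08% and 1.96% of 13589 genes. Libraries of the groups did not overlap for 2 of 9 genes, Zrsr1 and Airn, against 20.4% of all genes tested.

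The CabZ Het oocytes held 1, 0, 4 and 2 Zrsr1 reads (0.0802, 0, 0.360 and 0.187 CPM) and the KO oocytes 98, 72, 85 and 95 reads (9.79, 7.85, 8.88 and 10.4 CPM). The pooled rate was 59.9 times as high in KO (95% exact interval 28.8 to 150). The limma difference was 1.56 on the log2(FPKM + 1) scale (SE 0.0967, adjusted p = 2.08e-05) and 3.15 on the log2(CPM + 1) scale (SE 0.159, adjusted p = 1.07e-06). Its mean FPKM lay just above the limit of 1, and without any single KO library it fell below and was not tested, leaving 0 genes called, whereas on the CPM scale it was called with any single library left out. In the CabZ line too it passed the limits only through the KO libraries, with Het means of 0.0349 FPKM and 0.157 CPM. Zrsr1 therefore rose in the GV oocytes of both lines.

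Airn had 2.25, 4.60, 3.78 and 3.65 CPM in CabZ Het and 6.10, 7.29, 8.15 and 9.22 CPM in CabZ KO oocytes. Its difference of 0.94 on the log2(CPM + 1) scale (SE 0.195, limma adjusted p = 0.00760) fell just short of a fold change of 2, and exceeded it without Het replicate 2 or without KO replicate 1. Mest ran from 114 to 243 CPM in Het and from 47.6 to 141 CPM in KO, a difference of -0.72 on the log2(FPKM + 1) scale (SE 0.279) that did not pass (limma adjusted p = 0.124). It passed on the CPM scale only without KO replicate 1. Phlda2 ran from 15.0 to 33.6 CPM and from 7.41 to 18.5 CPM, with a difference of -0.80 (SE 0.288, limma adjusted p = 0.101) that passed only without Het replicate 3. Snrpn, Usp29, Peg3, Cdkn1c, Igf2r and Kcnq1ot1 overlapped between CabZ Het and CabZ KO oocytes.

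The KO effects of both lines were then set against each other in GV oocytes, each line against its own Het controls. The difference of the effects was tested by limma on the log2(CPM + 1) scale. Exact permutation p-values given beside it relabel libraries within each table. They assume no KO effect in either table and so do not test whether effects are equal. The effect differed for 4 of 9 imprinted genes tested, against 25.4% of 12593 genes. Phlda2 had the largest difference, being 1.68 higher with loss of HIRA and -0.83 with loss of CABIN1 (difference 2.51, SE 0.362, limma adjusted p = 0.000181, exact permutation p = 0.00122). Usp29 differed by -1.24 (limma adjusted p = 0.00354, exact permutation p = 0.0335) and Snrpn by 0.79 (limma adjusted p = 0.00951, exact permutation p = 0.0531). For Zrsr1 the rise was 1.11 larger in the ZH line by limma (adjusted p = 0.0116). Relabelling, which mixes the large KO effect into the spread, gave an exact permutation p = 0.619. The Zrsr1 row spanned 3282 bp in the ZH and 4492 bp in the CabZ oocyte table. The totals behind CPM differed as well, so the sizes of the rise are not strictly comparable. For Mest the effects were -2.14 and -0.89, and their difference did not pass (limma adjusted p = 0.183).

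**Figure D3:**
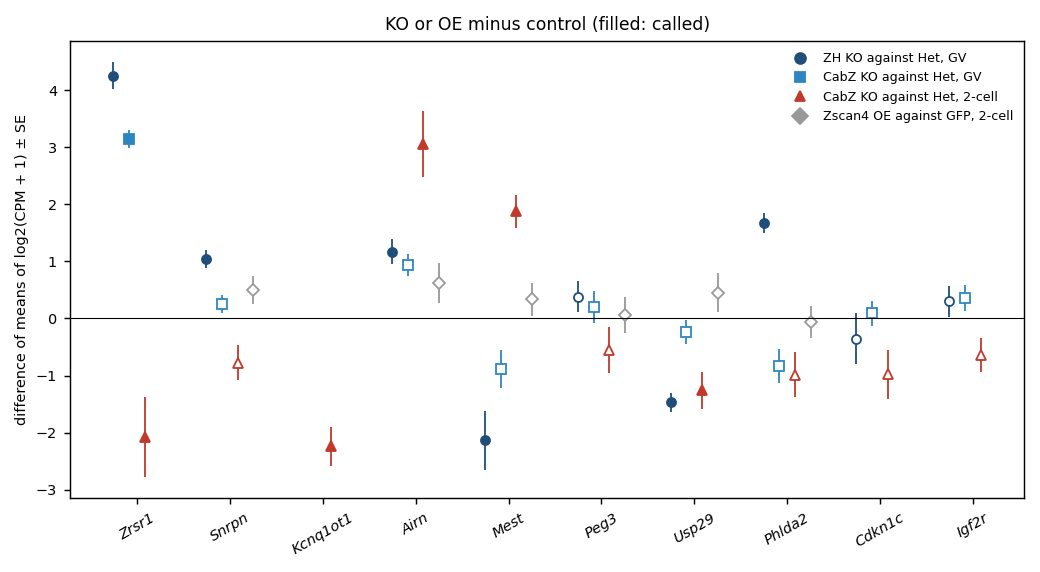
Difference KO minus Het, or Zscan4 OE minus GFP, of each imprinted gene on the log2(CPM + 1) scale in the 4 RNA-seq comparisons, with lines of 1 standard error from limma and filled symbols for called genes. Zrsr1 lies at 4.26 in ZH and 3.15 in CabZ oocytes and at -2.08 in CabZ 2-cell embryos, and Mest lies at -2.14 and -0.89 in oocytes and at 1.88 in CabZ 2-cell embryos.

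In CabZ 2-cell embryos the signs for Zrsr1 and Mest were opposite to those in the oocyte. Of 4 genes tested on the FPKM scale, Mest rose and Zrsr1 fell, against 16.9% of 7798 genes called higher and 20.4% called lower. On the CPM scale all 10 were tested. Mest and Airn rose and Zrsr1, Kcnq1ot1 and Usp29 fell, against 23.4% and 17.2% of 17530 genes. Libraries of the groups did not overlap for 5 of 10 genes (Kcnq1ot1, Snrpn, Usp29, Mest and Airn), against 40.4% of all genes. Over all genes tested, 1320 were called higher and 1594 lower, but 1757 and 1126 after median scaling.

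Kcnq1ot1 stood at 17.1, 16.5, 30.3 and 19.4 CPM in Het embryos and 3.76, 1.91, 5.85 and 3.27 CPM in KO embryos. It fell by 2.24 on the log2(CPM + 1) scale (SE 0.339, limma adjusted p = 0.000885), and the pooled rate of reads was 0.178 times that of Het (95% exact interval 0.141 to 0.222). Its overlapping gene Kcnq1 had means of 2.61 and 2.40 CPM. Phlda2 and Cdkn1c, of the same cluster, were not higher in KO. Whether Kcnq1ot1 silences them at this stage was not tested, and the reads do not tell alleles apart. Phlda2 had 309, 179, 260 and 234 CPM in Het and 257, 103, 113 and 71.3 CPM in KO, a difference of -0.98 (SE 0.364, limma adjusted p = 0.0435) just under a fold change of 2. It was called lower without Het replicate 2 (-1.12, limma adjusted p = 0.0450) and without KO replicate 1, whose Phlda2 level lay inside the Het range (-1.34, limma adjusted p = 0.00322). Cdkn1c, at 11.4, 29.3, 27.3 and 13.2 CPM in Het and 17.5, 9.10, 8.06 and 4.98 CPM in KO, did not pass (limma adjusted p = 0.0688), but was called lower without Het replicate 1 or without KO replicate 1.

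Zrsr1 varied strongly among the KO embryo libraries, at 27.0, 0.638, 3.95 and 10.7 CPM beside 36.2, 24.2, 27.1 and 31.1 CPM in Het. KO replicate 1 lay inside the Het range and the other KO libraries below it. Gm28048, whose span holds Zrsr1 on the other strand, had means of 2.90 CPM in Het and 8.05 CPM in KO embryos. The difference was -1.50 on the log2(FPKM + 1) scale (SE 0.481, limma adjusted p = 0.0243), with an exact permutation p = 0.0571. The call was lost without Het replicate 1 (adjusted p = 0.0557, limma), without Het replicate 4 (0.0517), without KO replicate 2 (0.05) and without KO replicate 3 (0.0624). On the CPM scale Zrsr1 was called with all libraries (difference -2.08, SE 0.706, limma adjusted p = 0.0344) and without KO replicate 1 or KO replicate 4, and in none of the other 6 fits that left 1 library out. The call was also lost after median scaling (-1.26, limma adjusted p = 0.0509). The fall of Zrsr1 is therefore less firm than its rise in the oocyte.

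Snrpn ran from 131 to 196 CPM in Het embryos and was 111, 58.1, 113 and 112 CPM in KO embryos. No KO library reached the Het range (exact permutation p = 0.0286, the smallest that 4 libraries against 4 allow), while the limma difference of -0.77 did not pass (SE 0.312, adjusted p = 0.0658). Usp29 fell from 51.5, 44.4, 49.8 and 47.6 CPM to 18.5, 17.7, 33.7 and 13 CPM (difference -1.26, SE 0.317, limma adjusted p = 0.00938). Zim3, which overlaps Usp29 on the other strand, moved the opposite way, with means of 1.52 and 8.29 CPM. Peg3 overlapped between groups, at means of 11.1 and 7.10 CPM.

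Mest and Airn were the imprinted genes that rose. Mest stood at 20.0, 12.4, 17.2 and 16.2 CPM in Het and 75.5, 47.0, 57.7 and 73.8 CPM in KO, a difference of 1.09 on the log2(FPKM + 1) scale (SE 0.175, limma adjusted p = 0.000920), and it was called with any single library left out. In these embryos Mest passed the limit of 1 FPKM through its KO libraries (mean 2.55 FPKM, against 0.66 FPKM in Het), while both groups averaged above 1 CPM. All KO embryo values of Mest were still below the lowest Het oocyte library of 114 CPM. The summed oocyte markers, also higher in KO embryos, are given above with the 2-cell markers, whose ranges overlapped between groups. Copg2, which overlaps Mest on the other strand, had means of 7.37 CPM in Het and 10.2 CPM in KO embryos. Airn was at 0, 0, 3.75 and 3.39 CPM in Het and 9.58, 20.9, 14.2 and 27.0 CPM in KO (difference 3.05, SE 0.581, limma adjusted p = 0.00247). Both Airn and the overlapping Mas1 had more reads in KO embryos, Mas1 with means of 0.503 and 7.10 CPM, and unstranded reads cannot be told apart there. Igf2r, which overlaps Airn, ran from 5.40 to 10.3 CPM in Het and from 3.19 to 5.84 CPM in KO. Its difference of -0.64 did not pass (limma adjusted p = 0.109). Whether Airn silences Igf2r at this stage was not tested.

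The CABIN1 effect differed between oocyte and embryo for 6 of 9 imprinted genes tested, against 43.3% of 12694 genes. The oocyte effect less the embryo effect was 5.23 for Zrsr1 (SE 0.770, limma adjusted p = 0.000125, exact permutation p = 0.000816) and -2.77 for Mest (SE 0.447, limma adjusted p = 0.000217, exact permutation p = 0.00163). Snrpn (1.02, limma adjusted p = 0.0176) and Igf2r (1.00, limma adjusted p = 0.0342) also had exact permutation p-values of 0.00122 and 0.0159. Airn (-2.11, limma adjusted p = 0.0141) and Usp29 (1.03, limma adjusted p = 0.0311) passed in limma. Their exact permutation p-values were above 0.05 (0.141 and 0.0824). Kcnq1ot1, too low in the oocyte for limma, had effects of 0.20 in oocytes and -2.24 in embryos, a difference of 2.44. Its exact permutation p = 0.00776 assumes no KO effect at either stage, so an effect in embryos alone can make it small. Phlda2 had nearly equal effects of -0.83 and -0.99, with a difference of 0.16 ± 0.511 (SE) that did not pass (limma adjusted p = 0.827).

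No imprinted gene was called between the libraries labelled Zscan4 OE and GFP. On the FPKM scale only Phlda2 could be tested (difference -0.06, limma adjusted p = 0.911), where 0.0233% of 4293 genes were called higher and 1.42% lower. On the CPM scale 6 could be tested and none passed in limma, where 0.0606% and 0.675% of 11550 genes were called and 1902 had an unadjusted p under 0.05. Snrpn was the only one whose libraries did not overlap, at 30.6, 35.7, 48.4 and 39.8 CPM in GFP and 48.5, 56.0 and 59.5 CPM in OE, against 14.9% of all genes tested. Its exact permutation p = 0.0571 is the smallest that 4 libraries against 3 allow, and its unadjusted limma p = 0.0615 also missed the threshold. Airn, Usp29, Peg3 and Mest overlapped, with limma differences of 0.62, 0.45, 0.06 and 0.34. Cdkn1c and Igf2r had means under 1 CPM in both groups.

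Zrsr1 and Mcts2 are both paternally expressed retrogenes that lie inside another gene. Zrsr1 lies within the Commd1 span on the opposite strand, where 2 annotated Commd1 exons overlap it, and Mcts2 within the H13 span on the same strand with 0 H13 exons overlapping. Mcts2 encodes a protein of the MCT-1 translation factor family. In ZH oocytes it had 2.01, 1.09, 1.99 and 1.03 CPM in Het and 5.83, 6.17, 7.01 and 9.17 CPM in KO (difference 1.71 on the log2(FPKM + 1) scale, limma adjusted p = 0.000110). CabZ oocytes had 1.52, 4.68, 1.17 and 1.96 CPM in Het and 8.39, 7.20, 8.55 and 3.62 CPM in KO (difference 1.33, limma adjusted p = 0.0226, exact permutation p = 0.0571), with KO replicate 4 below Het replicate 2. In CabZ 2-cell embryos it fell from 140, 129, 181 and 130 CPM to 39.5, 3.03, 10.6 and 34.5 CPM (difference -3.18, limma adjusted p = 0.00292). Mcts2 thus had the same signs as Zrsr1 in all 3 comparisons. Mcts2 was added after its values were seen, so the shared signs are not independent support for a pattern of retrogenes. The share of all genes with these signs was not counted.

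The genes that span these retrogenes went differently. Commd1 had means of 187 and 120 CPM in ZH Het and KO oocytes, 351 and 318 CPM in CabZ oocytes and 12.6 and 41.1 CPM in CabZ embryos, so that its sign was opposite to that of Zrsr1 in each, although its difference in CabZ oocytes did not pass (limma adjusted p = 0.530). H13 had 261 and 81.5 CPM in ZH oocytes, 240 and 126 CPM in CabZ oocytes and 20.0 and 12.8 CPM in CabZ embryos. The related gene Zrsr2 overlapped between groups in all of these comparisons, with means of 18.5 and 26.6 CPM in ZH oocytes. How reads shared by Zrsr1 and Zrsr2, or by Mcts2 and Mcts1, were assigned is not described, and Mcts1 was at 3.32 and 7.35 CPM in ZH oocytes and 53.2 and 13.4 CPM in CabZ embryos, so Mcts2 values are uncertain to that extent.

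**Figure D4:**
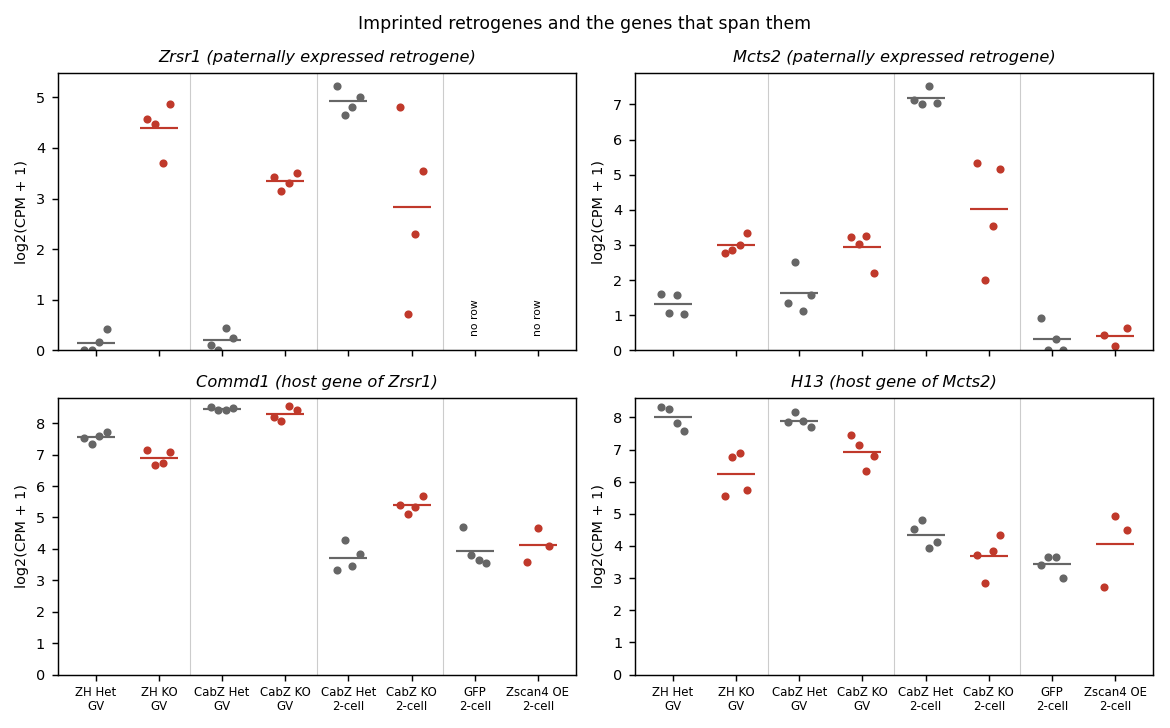
Levels of Zrsr1 and Mcts2 and of the genes that span them, Commd1 and H13, as log2(CPM + 1) in every RNA-seq library by group, with points for single libraries and a line for each group mean of the plotted values. The means of Zrsr1 and Mcts2 are higher in KO than in Het oocytes and highest in CabZ Het 2-cell embryos, while those of Commd1 and H13 are highest in Het oocytes.

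A wider list of imprinted genes held 21 further genes listed as paternally expressed, 24 listed as maternally expressed and Gnas, which has transcripts of both kinds. H13, which spans Mcts2, was counted in the paternal list throughout, and the counts of paternal genes below include it. These reads cannot check that class, so changes of H13 are not read as those of a paternally expressed gene. In ZH oocytes 2 genes of the paternal list could be tested on the FPKM scale, of which Mcts2 rose and H13 fell. On the CPM scale 5 could be tested, and Sgce, a sarcoglycan gene, rose as well, from 0.575, 0.545, 0.663 and 0.689 CPM to 10.4, 12.8, 10.0 and 11.9 CPM (difference 2.92, limma adjusted p = 5.25e-07). Sgce passed the limit of 1 CPM only through its KO libraries. None of the 3 maternal genes tested on the FPKM scale was called, and on the CPM scale 3 of 15 rose, namely Dcn, Meg3 and Ppp1r9a, near the 16% of all genes called higher. In CabZ oocytes Mcts2 was the only one called, of 2 paternal and 3 maternal genes tested on the FPKM scale and of 5 and 16 on the CPM scale. In CabZ 2-cell embryos Mcts2 and Nnat, a neuronal proteolipid gene, fell among 3 paternal genes tested, with Peg13 added on the CPM scale to make 3 of 11, and no paternal gene of this wider list rose. Of 3 maternal genes tested there Ascl2, a transcription factor gene of the placental lineage, rose from 1.30 ± 0.347 to 12.0 ± 5.49 FPKM (SD, n = 4, limma adjusted p = 0.000251), and on the CPM scale Asb4, Meg3 and Ppp1r9a also rose, 4 of 15, as did Gnas. The 4 of 15 maternal genes called higher stand near the 23.4% of all genes, and the 3 of 11 paternal genes called lower beside 17.2%. No gene of the wider list was called between Zscan4 OE and GFP, where 4 paternal and 12 maternal genes were tested on the CPM scale.

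The accessibility of the gene starts in CabZ GV oocytes was read from ATAC-seq peaks, which mark DNA open to a transposase. A peak within 500 bp of a start was present in at least 1 of 3 Het libraries for Mest, Phlda2 and Igf2r, 3 of 10 genes against 29.2% of 55413 annotated genes, and in at least 1 of 3 KO libraries for Mest alone, 1 of 10 against 13.9%. All 3 Het peaks came from Het library C, which had 111327 peaks against 43399 and 67074 in the other Het libraries and 19160 to 46070 in KO, and without it no Het peak remained. The peaks were weak, with a fold enrichment of 3.23 to 4.43 and a -log10 q of 2.28 to 3.87. For Mest the Het peak (chr6:30732662-30733535) and the KO peak (chr6:30722992-30723582) lay at different annotated starts. Neither lay at the Mest window shown above, and the KO peak was lost when its summit had to lie within 500 bp of a start. No library had a peak at the start of Zrsr1 or anywhere over its span, and the nearest one lay 9214 to 19176 bp from its start. With peak numbers that differ this much between libraries, and 3 libraries a group, no difference in accessibility between CabZ Het and CabZ KO could be tested at these genes.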

How the data were processed

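RNA-seq (31 libraries, Smart-seq2-type, unstranded) and ATAC-seq (6 libraries) of mouse oocytes and embryos were used as deposited. Per the labels and the study's methods, reads were aligned with STAR 2.5.3a (RNA-seq) or Bowtie2 2.3 (ATAC-seq) to mm10, and Partek Flow and MACS2 were used downstream. For ZH and Zscan4 OE the deposited values are FPKM that the authors computed per kilobase of the whole gene span, with a constant of 0.01 or 0.001 added. The deposited CabZ values are named as a score here. From the values alone it was inferred, as no source states it, that the authors' software had divided by the span a second time, scaled to a common total and added 0.01. Every CabZ FPKM, CPM and read count given here rests on undoing these steps. Values are also given as CPM (FPKM × span in kilobases), which is reads per 1000000 of the total that each library was scaled to. Low values lay within 0.1 of whole reads for 83.1% to 87.2% of values. The deposited MACS2 peak files give a fold enrichment (ratio) and a -log10 q per peak, called by the authors in each library separately.

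Each comparison was fitted in its own table with limma 3.58.1 (R 4.3.3) on log2(FPKM + 1), for genes that averaged 1 FPKM or more, with Benjamini-Hochberg adjustment over all genes tested; a call needed more than a 2-fold change at an adjusted p under 0.05. A fold change on this scale understates that of low genes. The same rule on log2(CPM + 1) used a mean of at least 1 CPM. Genes under the limit were compared by a two-sided exact permutation test of group means (scipy 1.17.1), which cannot go below 0.0286 with 4 libraries against 4 or 0.0571 with 4 against 3. Differences between KO effects were tested in limma on log2(CPM + 1) over genes in both tables. Exact relabelling within each table (20 relations) assumes no KO effect in either, so it does not test equal effects. Both were added after seeing the data. Intervals and reads near 0 cover counting error only. The limma scripts were tested on simulated data. All 10 genes are named in every table that lists them, with some of the genes overlapping them. Of a wider list, those called or with a mean of at least 10 FPKM are named. The members and lists were chosen with earlier results of these data known. Alternatives covered the pseudocount, the limit on low values, the scale, the scaling, the replicate block and each library left out. Replicate numbers did not pair the libraries (correlation of deviations -0.407 to 0.395).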

Additional observations from a re-analysis of the deposited data

Results flagged for a closer look

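Of 68 groups of 4 libraries examined over the 10 imprinted genes, 5 held a library far from the other 3, and chance alone marks about 1 group in 20. On the FPKM scale per gene span, Cdkn1c was highest in ZH KO oocytes replicate 2 at 5.35, Igf2r in CabZ KO oocytes replicate 2 at 0.181, Peg3 in CabZ Het oocytes replicate 4 at 0.208 and Usp29 in ZH Het oocytes replicate 3 at 0.101. Snrpn was lowest in CabZ KO 2-cell embryos replicate 2 at 0.368.

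The effect of losing HIRA in GV oocytes differed from that of losing CABIN1, on the log2(CPM + 1) scale and by limma, for Phlda2 by 2.51, for Snrpn by 0.79, for Usp29 by -1.24 and for Zrsr1 by 1.11. Phlda2 was the gene with opposite signs in the lines. Exact permutation, which assumes no KO effect in either line, gave p-values above 0.05 for Snrpn (p = 0.0531) and Zrsr1 (p = 0.619). The effect of losing CABIN1 differed between GV oocytes and 2-cell embryos for Zrsr1 by 5.23, for Mest by -2.77, for Airn by -2.11, for Usp29 by 1.03, for Snrpn by 1.02 and for Igf2r by 1.00. Zrsr1, Mest, Snrpn and Igf2r had opposite signs at the stages, although in the oocyte of these 4 only Zrsr1 passed the test of the effect itself. Exact permutation, which assumes no KO effect at either stage, gave p-values above 0.05 for Airn (p = 0.141) and Usp29 (p = 0.0824).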

How the results depend on the processing

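The number of imprinted genes called depended mainly on the scale. In ZH oocytes it was 3 on the FPKM scale, 2 with a limit of 5 FPKM and 6 on the CPM scale, also with the replicate block or another scaling added to CPM (combinations chosen after seeing the data), and ranged from 3 to 6 over the fits without 1 library on either scale. In CabZ oocytes it was 1 on both scales, 0 with a limit of 5 FPKM, and 0 to 3 without 1 library. In CabZ 2-cell embryos it was 2, and 5 on the CPM scale with or without the replicate block or another scaling. It was 1 with a pseudocount of 0.1, 1 with no limit on low values, 1 with median scaling, 0 with a limit of 5 FPKM and 0 with the CabZ values as deposited, and 1 to 7 without 1 library. In CabZ oocytes no gene of the set reached the limit in the values as deposited, so no value is given. Between Zscan4 OE and GFP it was 0 under every alternative run. Fewer or more genes entered the test under another limit or scale, and for the other changes the cause was not tested. From GV oocyte to 2-cell embryo 8 genes did not overlap in CabZ Het and 4 in CabZ KO. The ATAC-seq count of 3 was 0 with a -log10 q of at least 5, and 1 to 3 without 1 library, 1 being the value without Het library C.

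The replicate block is not supported by the labels or the pairing check and left the counts at 3, 1, 2 and 0 on the FPKM scale. Among 475 alternatives for single genes set against the FPKM results, 9 lost and 6 gained a call and 6 changed the sign of a tested difference that was not called. The other 454 kept their side of the threshold or, for genes under the limit, moved by less than the spread between replicates, 6 of them with another sign. Among 368 alternatives set against the CPM results, 8 lost a call (Zrsr1 in CabZ embryos in 6 and Snrpn in ZH oocytes in 2), 6 gained one, and 8 changed sign, 0 of them called in either fit: Peg3 in 1 CabZ oocyte and 3 Zscan4 OE fits, Cdkn1c in 2 CabZ oocyte fits and Phlda2 in 2 Zscan4 OE fits. With 1 library left out, Cdkn1c ran from -0.653 to 0.0121 in ZH oocytes (above 0 without KO replicate 1) and from -0.0206 to 0.197 in CabZ oocytes (below 0 without KO replicate 1 or 2, -0.0181 for the latter). Phlda2 between Zscan4 OE and GFP ran from -0.281 to 0.177 (above 0 without GFP replicate A or OE replicate B), and was 0.0367 with median scaling. Median scaling moved the median log2 difference of all genes from -0.04 to -0.19 in ZH oocytes, from -0.11 to 0.13 in CabZ embryos and to 0.13 between Zscan4 OE and GFP. On the CPM scale genes called higher and lower numbered 2191 and 1755 in ZH oocytes, 3014 and 1416 when scaled to the reads of the table, and 4099 and 3016 against 4687 and 2694 with median scaling in CabZ embryos. Depth limits Zrsr1 in Het oocytes (7 and 9 reads in all) and Kcnq1ot1 in all oocytes.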
